A study of Mus musculus with 18 samples.

Results

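The comparison set 3 libraries of old female mice given 3TC against 3 libraries of old untreated female mice. These 6 libraries were chosen from the 18 of the series by their labelled age, sex and treatment. The females were C57BL/6 mice of 19 months, and RNA came from the rectus femoris, a thigh muscle made mostly of fast fibres. The treated females drank water with 3TC at 2 mg per mL for 6 weeks, and the untreated females received none. The untreated libraries carry the numbers 1, 2 and 3 and the 3TC libraries the numbers 4, 5 and 8, and values are given in that order throughout. The other 12 were from 19-month-old males, untreated or given 3TC at the same dose for the same time, and from untreated mice of 8 months and both sexes, here called young, 3 per group. Polyadenylated RNA was sequenced as paired-end reads and counted over genes and transposable element subfamilies.

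3TC (lamivudine) is a cytidine analogue that cells phosphorylate and that ends DNA chains made by reverse transcriptase. Retrotransposons such as mouse L1 copy themselves through reverse transcription of their RNA, and their DNA copies in old tissues are known to engage interferon signalling. A nucleoside analogue can also reach the mitochondrial DNA polymerase, so genes of mitochondrial DNA upkeep and oxidative phosphorylation belong to the same question.

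The average level of skeletal muscle genes was alike in the 6 libraries, though single members varied. A score of 16 genes that mark skeletal muscle, their average level as log2(normalised count + 1), lay between 18.68 and 18.94. The fast myosin heavy chain Myh4 stood at 2597094, 2327512 and 2094389 normalised counts in untreated and at 1628853, 2870519 and 1875524 in 3TC females. Myh1, another fast myosin heavy chain of the list, varied more, at 414087, 98239 and 202099 and at 571625, 143323 and 275874. Xist, which coats the silent X chromosome of females, was measured at 11788, 12756 and 10377 and at 9608, 10978 and 7188. The libraries held 73.9 M, 81.9 M and 79.4 M recovered reads without 3TC and 70.9 M, 68.3 M and 69.7 M with 3TC. Every 3TC library was therefore shallower than every untreated one, and fewer genes had a read in them, 17627 to 17684 against 18045 to 18228. The labels do not state that each library is a separate animal, so p-values measure the spread between libraries. In the limma fits below, that spread was taken over all 18 libraries unless stated otherwise.

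Transcripts of brain and liver were present, and most of the listed brain genes were higher in every untreated female than in any 3TC female. Snap25, a synaptic fusion protein of neurons (chromosome 2, 136713453 to 136782428, GRCm38), stood at 845, 773 and 417 normalised counts in untreated females and at 2.1, 2.2 and 38.2 in 3TC females. Slc1a2, the glutamate transporter of astrocytes, stood at 6378, 2179.9 and 529.5 and at 0, 1.1 and 49.9. Both genes were at 417 counts or more in each untreated library and near 0 in 3TC females 4 and 5. Grin1, an NMDA receptor subunit, stood at 207, 110.3 and 108 and at 1.0, 6.5 and 5.3.

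A score over 16 brain genes stood at 9.05, 8.05 and 7.52 in untreated and at 3.85, 4.36 and 5.01 in 3TC females. The groups did not overlap, with means of 8.21 ± 0.78 and 4.41 ± 0.58 (SD, n = 3), and the difference was −3.80 (n = 3 each, p = 0.1 by an exact two-sided permutation test, the smallest that the 20 regroupings allow). Of the 16 genes 15 passed the filter on low counts, and 11 of these 15 lay lower in all 3TC females. The summed level ran from 45047 to 48777 normalised counts in untreated and from 27369 to 48751 in 3TC females, and Camk2a, which muscle itself expresses, made up most of it. Gad2, Camk2a and Stmn2 stood at 256 counts or more in all 6 libraries, and their groups overlapped. The groups of Mobp overlapped too, at 508.6, 28.9 and 38.2 in untreated and at 0, 1.1 and 80.7 in 3TC females. At 0 were 4 of the 16 genes in 3TC female 4, none in 3TC female 5 and 1 in 3TC female 8, against none in the untreated libraries. Outside this comparison, the brain score ran from 4.17 to 4.42 in old untreated males and from 4.19 to 6.64 in old 3TC males. In young untreated mice it ran from 5.35 to 6.83 in females and from 3.97 to 9.39 in males. Of these libraries only young untreated male 8 reached the level of the old untreated females. It had 2523 counts of Snap25, which is above every old female. The part of these brain transcripts in the differences below was not tested. For some genes and lists, a fit with the brain and liver scores (the tissue scores) as covariates is given. The brain score itself separated the groups, so in such a fit 3TC and brain RNA cannot be told apart.

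Liver transcripts did not separate the groups. Alb, serum albumin (chromosome 5, 90460897 to 90476602), stood at 3484, 3358 and 22966 in untreated females and at 33.4, 208 and 39644 in 3TC females. Apoa1, the main protein of high-density lipoprotein, stood at 843, 385 and 3034 and at 5.2, 2.2 and 6129.5. The highest value of both genes was in 3TC female 8 and the next in untreated female 3, so the groups overlapped. A score over 22 liver genes stood at 7.91, 7.46 and 9.88 in untreated and at 2.62, 3.58 and 11.10 in 3TC females, a difference of −2.65 (exact two-sided permutation p = 0.4, n = 3 each). All 22 genes were tested, none of them separated the groups, and their summed level ran from 11447 to 45894 counts in untreated and from 1462 to 96024 in 3TC females. Without 3TC female 8 the difference of the scores was −5.31. None of 10 kidney genes passed the filter on low counts. The kidney score was near the bottom of the scale but also separated the groups, at 1.51 ± 0.13 in untreated and 0.90 ± 0.19 in 3TC females (SD, n = 3 each, exact two-sided permutation p = 0.1, the smallest possible). The 10 genes summed to 30 to 60 counts in untreated and to 18 to 28 in 3TC females, and the kidney genes Umod and Kap were at 0 in all 6 libraries. Only Slc22a8 separated the groups by itself, at 38.0, 9.0 and 28.0 in untreated and at 0 in all 3TC females. Without Slc22a8 the kidney scores of the groups overlapped, so their separation rested on that gene.

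**Figure D1:**
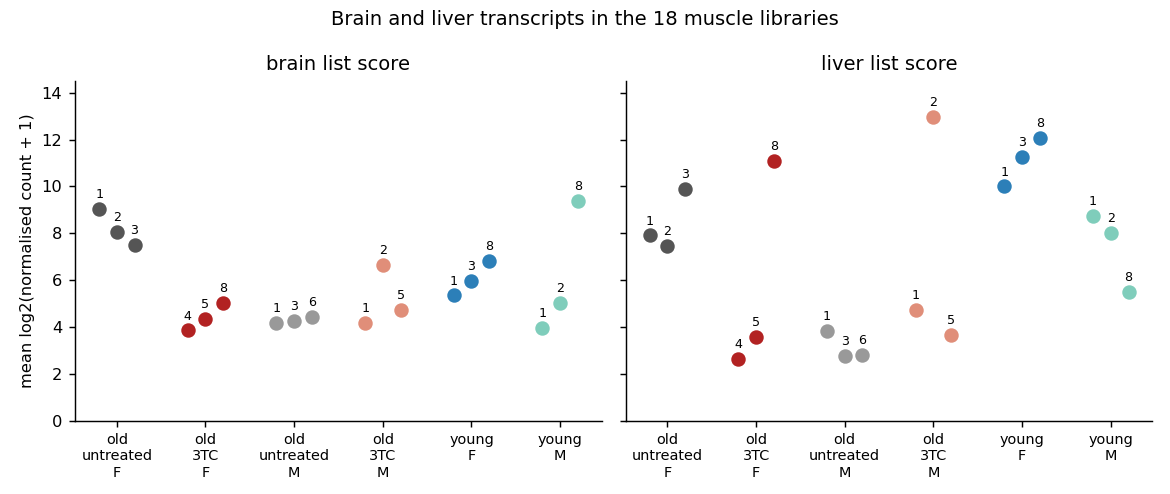
Brain list score (left) and liver list score (right) of each of the 18 libraries, averaged over the list on the log2(normalised count + 1) scale, with replicate numbers beside the points and F and M for females and males. The brain scores of old untreated females (7.52 to 9.05) lie above those of old 3TC females (3.85 to 5.01), while the liver scores of these groups overlap.

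No gene passed the test for 3TC in old females. limma, fitted over all 18 libraries on log2(normalised count + 1), called 0 of 16060 genes (0%) at an adjusted p under 0.05, and the lowest adjusted p was 0.602. At an unadjusted p under 0.05 there were 1286 genes, 1241 of them lower and 45 higher with 3TC. edgeR on the recovered reads also called 0 genes, with 759 at an unadjusted p under 0.05, and DESeq2 called 32. The median log2 change of all genes was −0.19 as deposited and −0.02 after median-of-ratios scaling, which rescales each library by its median gene, so changes of gene lists below are given relative to the median of all genes.

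Described without a test, 1722 genes (10.7%) lay lower in each of the 3TC females than in any untreated female, and 132 (0.822%) lay higher. After median-of-ratios scaling these counts were 934 (5.82%) and 502 (3.13%), so the split between lower and higher depended on the scaling. Of the 1722 genes 293 were at least 4-fold lower. Of these 293 genes 256 (87.4%) were also at least 4-fold higher in young untreated male 8, the library with the highest brain score, than in the other young males, against 753 (4.7%) of all genes tested. Among the 1199 genes that were lower by less than 2-fold, 1.7% had that pattern. Only 5 of the 132 higher genes were at least 4-fold higher, namely Myh6, Sbspon, Rpph1, Ly6g6d and Fgf23, a list given after the values were seen.

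DESeq2 called 30 genes lower (0.187%) and 2 higher. Of the 30 genes 2 are on the brain list, Slc1a2 and Grin1, and all 30 lay lower without overlap. Of the same 30 genes 24 (80.0%) were at least 4-fold higher in young untreated male 8, and 28 had their highest value in untreated female 1. Hpca, the calcium sensor hippocalcin, stood at 552, 184 and 81.1 in untreated and at 2.1, 9.8 and 9.6 in 3TC females. Of the 30 genes 8 had no read in any 3TC female, and no fold is given for them. The 2 genes called higher were Myh7 and the predicted gene Gm13490, which stood at 19.0, 19.9 and 45.7 and at 74.2, 76.9 and 83.9.

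**Figure D2:**
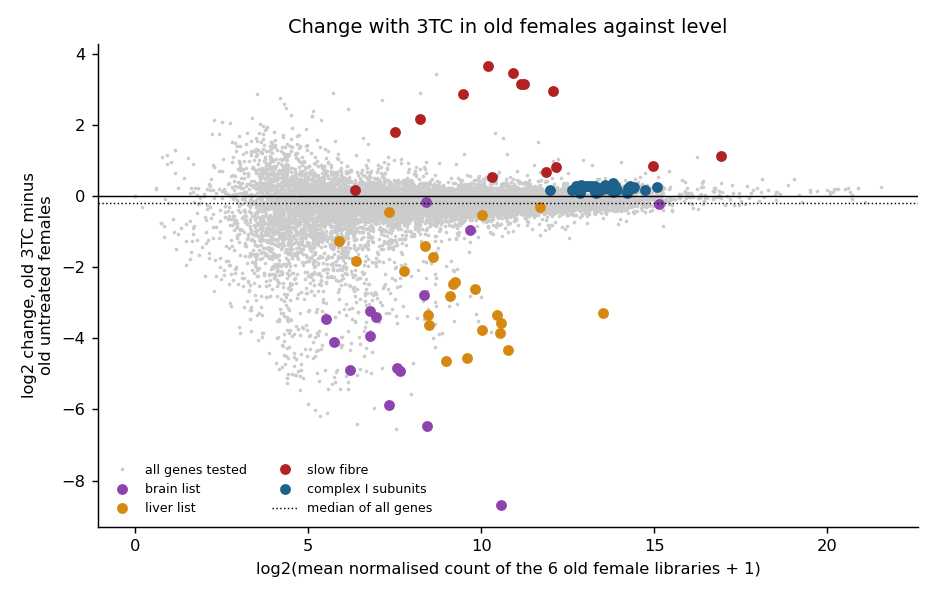
Log2 change with 3TC in old females for each of the 16060 genes tested against its level, the log2 of the mean normalised count of the 6 libraries plus 1, with members of 4 gene lists in colour. Of the brain genes 14 of 15 and of the liver genes all 22 lie below the median of all genes (dotted line, −0.19), slow fibre genes lie above it, and complex I subunits lie in a narrow band just above 0.

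The 10 genes with the smallest p among those lower without overlap were Camk2n1, Phyhip, Slc1a2, Lrrc4b, Kcnj10, Psd, Astn1, Trps1, Rundc3a and Axin1. Camk2n1, an inhibitor of the calcium kinase CaMKII (chromosome 4, 138454314 to 138460123), stood at 2697, 2226 and 1509 in untreated and at 977, 873 and 1030.1 in 3TC females, a log2 change of −1.12 ± 0.22 (adjusted p = 0.602, limma). The 3TC values lay close together and each was below the lowest untreated value. DESeq2 gave an adjusted p of 0.0125 for Camk2n1, and over the 21 alternatives to limma's fit it ranged from 0.0125 to 1. Kcnj10, a potassium channel of glia, stood at 395, 206 and 133 and at 14.6, 21.7 and 19, with a log2 change of −3.53 ± 0.80. When the tissue scores entered the fit as covariates, the log2 change was −0.73 for Camk2n1 and −0.89 for Kcnj10. Young untreated male 8 lay 3.52 above the other young males for Kcnj10 on the log2 scale and 0.33 above them for Camk2n1.

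The log2 changes of 5 further genes were large. Phyhip (−4.91 ± 0.98), a gene of brain, the synaptic adhesion gene Lrrc4b (−3.96 ± 0.86), the exchange factor gene Psd (−1.98 ± 0.47), the neuronal adhesion gene Astn1 (−3.81 ± 0.90) and Rundc3a (−2.53 ± 0.61) each stood at no more than 73.1 counts in any 3TC female. All 5 were more than 2-fold higher in young untreated male 8 than in the other young males. With the tissue scores as covariates the log2 changes of the 5 genes ran from −1.90 for Phyhip to −0.69 for Psd. Trps1, a zinc finger repressor of transcription, stood at 799, 900.2 and 764 in untreated and at 531, 640.4 and 512 in 3TC females (−0.55 ± 0.13). Axin1, a scaffold of the complex that degrades beta-catenin, stood at 2359, 1616 and 1559.7 and at 1169, 1339 and 1102 (−0.59 ± 0.14). For both genes the groups stayed apart after median-of-ratios scaling, and the log2 changes with the tissue scores as covariates were −0.49 for Trps1 and −0.50 for Axin1.

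Among genes higher without overlap, the 10 with the smallest p were Coq7, Myh6, Akr1b10, Ctnna3, Tmem140, Cd59b, Gas2l3, Tcap, Gadd45g and Atp5sl. Coq7, a hydroxylase of coenzyme Q synthesis (chromosome 7, 118509659 to 118533356), stood at 1464, 2427 and 2352 in untreated and at 3189, 2605 and 3415 in 3TC females, a log2 change of 0.59 ± 0.18. Untreated female 1 was lowest, and the other untreated libraries came close to 3TC female 5. Tcap, the titin cap protein of the Z-disc, stood at 110618, 90130.5 and 130614 and at 149116, 133149 and 138542 (0.36 ± 0.16), and its groups overlapped after median-of-ratios scaling.

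Gadd45g, a stress-induced growth arrest gene, stood at 1769, 1436 and 1286 in untreated and at 1852, 2369.8 and 2213 in 3TC females (0.52 ± 0.24). The remaining log2 changes were 0.36 ± 0.13 for the aldo-keto reductase gene Akr1b10, 0.52 ± 0.20 for the alpha-catenin gene Ctnna3, 0.33 ± 0.13 for Tmem140, 1.07 ± 0.45 for the cytoskeletal linker gene Gas2l3 and 0.36 ± 0.17 for Atp5sl. Cd59b, a complement inhibitor with a near copy in Cd59a, differed by 0.66 ± 0.27, and reads could be split between the copies. With the tissue scores as covariates the log2 changes were 0.36 for Coq7, 0.24 for Gadd45g, 0.30 for Cd59b and 0.04 for Atp5sl. None of the 20 genes passed the test by limma, which gave each of the 20 an adjusted p of 0.602 or more. DESeq2 called Phyhip, Kcnj10, Lrrc4b, Camk2n1, Psd, Rundc3a, Astn1 and Slc1a2 lower, with adjusted p from 0.000302 to 0.0345. It called neither Trps1 nor Axin1, and none of the higher genes among the 20.

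**Figure D3:**
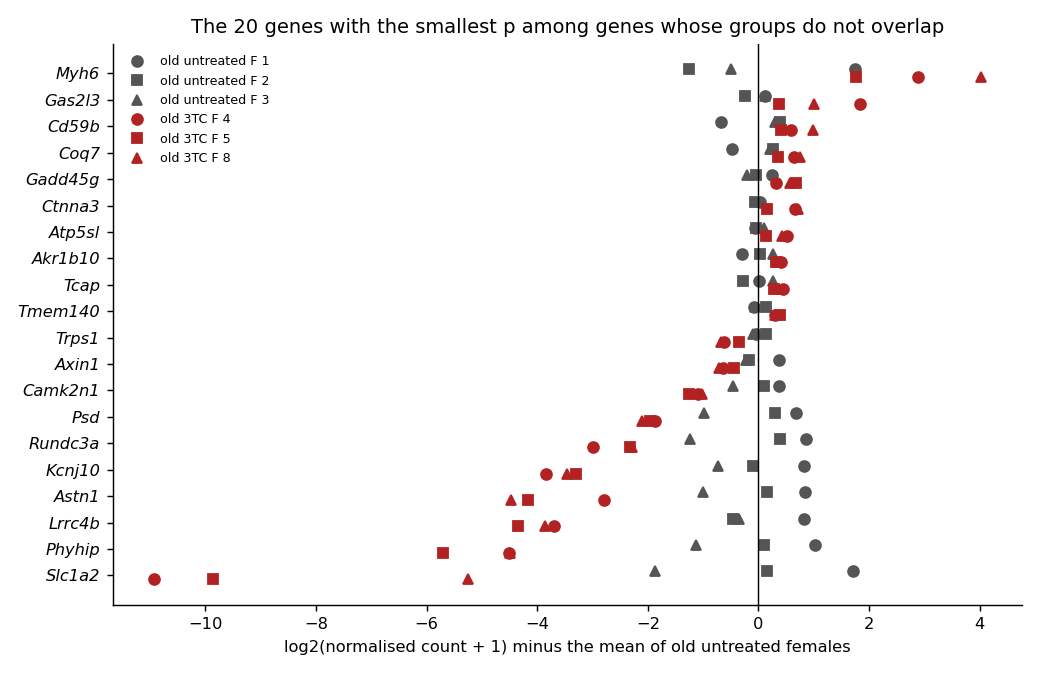
Log2 of the normalised count plus 1 in each of the 6 libraries, minus the mean of the old untreated females, for the 20 genes with the smallest p among genes whose groups do not overlap (10 lower, 10 higher with 3TC). The genes from Psd to Slc1a2 extend furthest to the left, and the higher genes other than Myh6 stay within about 2 units of the untreated mean.

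Slow fibre genes stood highest in 3TC females 4 and 8 and low in 3TC female 5. Slow fibres are built from their own myosin and troponin forms, which fast muscles such as the rectus femoris contain in small amounts. Myh7, the slow myosin heavy chain (chromosome 14, 54970684 to 54994626), stood at 178, 97.6 and 83.0 normalised counts in untreated and at 2446, 34.7 and 11633 in 3TC females. Tnnc1, the calcium-binding troponin of slow fibres, stood at 129, 22.6 and 63.4 and at 1206, 57.4 and 5610.2. Myl3, a slow myosin light chain, stood at 84.1, 40.7 and 49.4 and at 1586, 14.1 and 9857. In all 3 genes 3TC female 8 was highest and 3TC female 4 next, while 3TC female 5 lay within or below the untreated range.

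The RefSeq promoters of the 4 slow fibre genes with the largest log2 change are shown because these genes varied together across the libraries. Each is 300 bases long (build GRCm38.p6, read along the gene's strand), from 250 bases before the start of transcription to 50 after it, and capitals mark E boxes (CANNTG, which reads the same on both strands), the site that myogenic factors such as MyoD bind. Tnnc1 lies at chr14:31208062-31208361 (plus strand), Myl3 at chr9:110763428-110763727 (plus), Tnnt1 at chr7:4515926-4516225 (minus) and Myh7 at chr14:54994500-54994799 (minus). Where RefSeq gives several starts for a gene, the one farthest along the gene is shown.
Tnnc1: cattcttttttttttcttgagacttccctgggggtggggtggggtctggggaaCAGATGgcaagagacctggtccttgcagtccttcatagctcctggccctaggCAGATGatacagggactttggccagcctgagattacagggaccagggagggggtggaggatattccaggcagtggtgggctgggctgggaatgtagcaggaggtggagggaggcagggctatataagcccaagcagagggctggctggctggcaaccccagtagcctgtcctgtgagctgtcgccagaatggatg
Myl3: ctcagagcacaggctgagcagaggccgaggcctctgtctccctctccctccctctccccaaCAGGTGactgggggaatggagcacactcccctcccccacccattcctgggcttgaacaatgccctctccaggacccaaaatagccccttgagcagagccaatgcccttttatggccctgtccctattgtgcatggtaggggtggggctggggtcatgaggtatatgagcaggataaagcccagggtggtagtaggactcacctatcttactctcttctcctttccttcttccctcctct
Tnnt1: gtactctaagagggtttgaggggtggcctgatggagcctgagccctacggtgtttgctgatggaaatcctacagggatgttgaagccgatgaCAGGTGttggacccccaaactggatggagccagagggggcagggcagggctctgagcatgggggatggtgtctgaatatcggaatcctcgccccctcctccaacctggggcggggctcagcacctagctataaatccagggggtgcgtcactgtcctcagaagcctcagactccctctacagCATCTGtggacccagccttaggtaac
Myh7: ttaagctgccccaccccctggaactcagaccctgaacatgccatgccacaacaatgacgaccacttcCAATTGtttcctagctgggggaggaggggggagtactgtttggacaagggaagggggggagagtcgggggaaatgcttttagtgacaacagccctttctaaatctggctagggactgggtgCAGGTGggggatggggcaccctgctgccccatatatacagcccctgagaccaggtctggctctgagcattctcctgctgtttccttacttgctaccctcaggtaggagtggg
Of the 14 slow fibre genes 12 matched a RefSeq promoter, and all 12 held an E box, against 75.0% of the 27025 genes with a promoter in the table. The letters CATTCC of the MCAT element, searched on both strands, stood in 3 of the 12 and in 16.6% of all genes. In both counts a gene was included if any of its promoters held the site.

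All 14 slow fibre genes were tested, and their median change was 2.16 above the median of all genes on the log2 scale. All 14 lay above that median, and none of them separated the groups as deposited (background 0.822% higher), with 1 higher after median-of-ratios scaling. The log2 changes were 3.66 ± 1.76 for Tnnc1, 3.46 ± 2.24 for Myl3, 3.15 ± 1.46 for the troponin T gene Tnnt1, 3.14 ± 1.55 for Myh7, 2.94 ± 2.01 for the light chain gene Myl2 and 2.88 ± 1.33 for the troponin I gene Tnni1. The standard errors of these 6 genes ran from 1.33 to 2.24. The slow fibre score stood at 9.31, 8.00 and 8.71 in untreated and at 11.37, 8.07 and 12.43 in 3TC females. For Myh7 limma gave an adjusted p of 0.602 and DESeq2 0.022, and the range over its 21 alternatives was 0.022 to 1. Without 3TC female 8 the list's median relative to all genes was 1.55, and without 3TC female 5 it was 3.11. The median log2 change was 1.97, and 1.42 with the tissue scores as covariates.

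Of the other slow or oxidative fibre genes given here, all but Myh6 had smaller log2 changes than the genes above. Myoglobin (Mb) stood at 64894, 34689.5 and 94064 in untreated and at 272513, 32776 and 245903 in 3TC females. Myh2, the myosin of fast oxidative fibres, stood at 74615, 17619.9 and 36707 and at 165808, 19219.6 and 150231. Again 3TC females 4 and 8 were highest and 3TC female 5 was as low as untreated female 2. The slow tropomyosin Tpm3 (0.81 ± 0.36) and the ancient myosin Myh7b (1.78 ± 0.80) had positive log2 changes with overlapping groups. Myh6, the cardiac myosin that lies beside Myh7 in the genome, stood at 190.2, 22.6 and 39.2 and at 418, 191 and 923 (2.89 ± 0.97). Its lowest 3TC value was barely above its highest untreated value, and reads could be shared with the near-identical Myh7. The 16 fast fibre genes lay 0.32 above the median of all genes, and none of them separated the groups. In bulk RNA, fewer fibres of a kind and less RNA per fibre cannot be told apart.

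**Figure D4:**
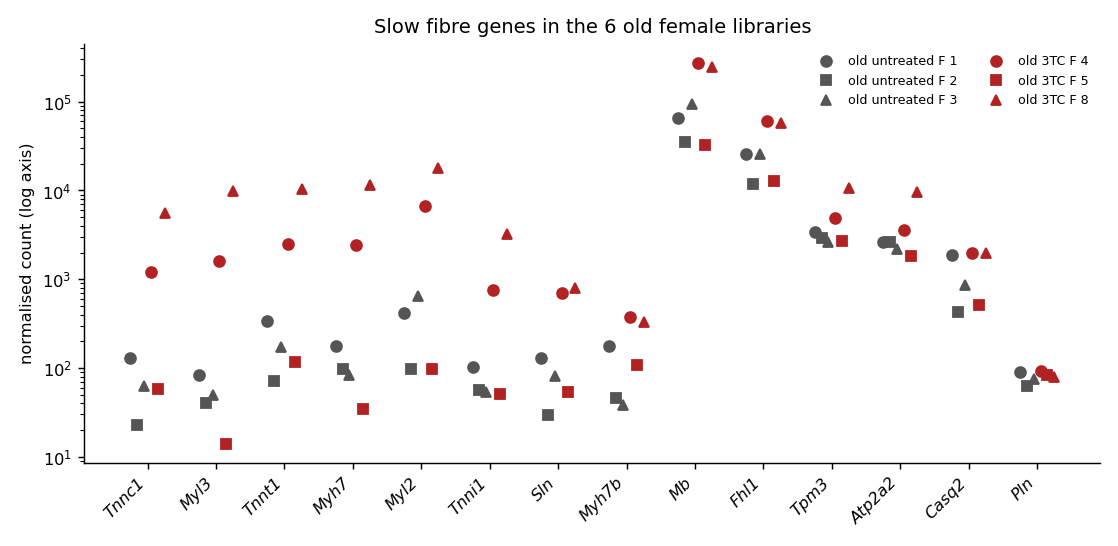
Normalised counts of the 14 slow fibre genes in each of the 6 old female libraries on a log axis, ordered by log2 change. From Tnnc1 to Sln, 3TC females 4 and 8 lie above all untreated females, and 3TC female 5 lies among or below them.

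Genes of oxidative phosphorylation lay slightly above the median of all genes, highest in the same pair of 3TC libraries. All 36 nuclear genes of complex I subunits lay above it, with a median of 0.42 on the log2 scale relative to all genes, and so did all 37 genes of complexes II to V (0.43). None of these 73 genes separated the groups. Ndufs1, the largest subunit of complex I, stood at 9875, 10984 and 11960.0 in untreated and at 15098, 11680.0 and 14256 in 3TC females. Uqcrc2, a core subunit of complex III, stood at 17078, 17585 and 20046 and at 23519, 18695 and 25146. In both genes 3TC female 5 fell inside the untreated range. With both tissue scores as covariates the median log2 change was −0.04 for complex I and −0.03 for complexes II to V, against 0.23 and 0.24 without them. Because the brain score separated the groups, this fit cannot tell 3TC from brain RNA.

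The 15 transcripts of mitochondrial DNA had a median of 0.37 relative to all genes, and none of them separated the groups. They held 18.8%, 20.1% and 22% of the counts in untreated and 27.3%, 17.7% and 25.5% in 3TC females. The 20 genes of the TCA cycle had a median of 0.35, and 1 of them, Idh3a, separated the groups (all genes 0.822% higher). Idh3a, a subunit of isocitrate dehydrogenase, stood at 18050.4, 26274 and 27212 and at 30576, 27468 and 27795 (0.28 ± 0.14). Its groups overlapped after median-of-ratios scaling, under which 2 TCA cycle genes lay higher (all genes 3.13%), and with the tissue scores as covariates its log2 change was 0.08. The 26 genes of fatty acid oxidation lay 0.28 and the 40 genes of mitochondrial ribosomal proteins 0.21 above the median of all genes.

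Genes that maintain mitochondrial DNA and supply its nucleotides lay near the median of all genes. The 28 genes had a median 0.03 above that of all genes, with 1 higher (Rrm2) and 1 lower (Mterf3) without overlap, against backgrounds of 0.822% and 10.7%. After median-of-ratios scaling 5 lay higher and none lower, against 3.13% and 5.82% of all genes. Polg, the mitochondrial DNA polymerase, stood at 3004, 2025 and 1568 in untreated and at 1887, 1727 and 1739 in 3TC females (−0.25 ± 0.18). Tk2, the mitochondrial thymidine kinase, stood at 639, 714 and 487 and at 369.7, 555 and 502 (−0.37 ± 0.24). Samhd1, which degrades deoxynucleotides, stood at 3246, 1671 and 1229.7 and at 1638, 1804 and 1321 (−0.26 ± 0.27). The groups of all 3 genes overlapped.

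Genes that carry or activate 3TC were likewise close to the median of all genes. Of the 17 listed genes 15 were tested, their median lay 0.07 above that of all genes, and 1 of them, the efflux pump gene Abcb1a, lay lower without overlap, against 10.7% of all genes. Dck, the kinase that adds the first phosphate to 3TC, stood at 126, 201 and 172 in untreated and at 132, 194 and 132 in 3TC females. Cmpk1, the kinase of the next step, stood at 1457, 1881 and 1566 and at 1337, 1478 and 1321 (−0.24 ± 0.14). Both groups overlapped. Abcb1a stood at 1310.5, 1047 and 1049.7 and at 1039, 998 and 764 (−0.29 ± 0.17), and its groups overlapped after median-of-ratios scaling.

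Most interferon-stimulated genes lay below the median of all genes, and untreated female 1 stood above the other libraries in several of them. The 40 genes had a median of −0.32 relative to all genes, and 35 of them lay below the median of all genes. Only Ifi44 and Igtp separated the groups, 2 of 40 against a background of 10.7%. Iigp1, a GTPase induced by interferon, stood at 7370.3, 914 and 620.0 in untreated and at 1288, 648 and 644 in 3TC females. The value of untreated female 1 was the highest, while the other untreated libraries overlapped the 3TC libraries. Without untreated female 1 the median of the list relative to all genes was 0.00. With the tissue scores as covariates its median log2 change was 0.00, against −0.51 without them.

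Ifi44, an interferon-induced gene, stood at 275, 104 and 79.2 in untreated and at 48.0, 66.1 and 42.5 in 3TC females (−1.34 ± 0.39, adjusted p = 0.602, limma). Its adjusted p ranged from 0.173 to 1 over 21 alternatives. The interferon regulator Irf7 stood at 878, 707 and 237 and at 240.2, 542 and 341 (−0.57 ± 0.44), and Ifi35 at 842, 710.4 and 677 and at 515, 715 and 522 (−0.36 ± 0.15). Of 24 nucleic acid sensing genes, 2 lay lower and 1 higher without overlap (all genes 10.7% and 0.822%), with a median of −0.10 relative to all genes. Adar, an editor of double-stranded RNA, stood at 739.8, 677 and 403 and at 389.6, 401 and 361 (−0.61 ± 0.29). Untreated female 3 lay just above 3TC female 5 for Adar, and the groups overlapped after median-of-ratios scaling. With the tissue scores as covariates the log2 changes were −0.78 for Ifi44 and −0.04 for Adar.

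The 18 genes of MHC class I presentation had a median of −0.51 relative to all genes, and 4 of them lay lower without overlap (background 10.7%). H2-Q7, a non-classical class I heavy chain, stood at 1047, 449 and 283 in untreated and at 242, 271 and 192 in 3TC females (−1.13 ± 0.43). H2-T23, the mouse ligand of inhibitory natural killer receptors, stood at 2000.3, 1202 and 1026 and at 1019, 765 and 729.5 (−0.70 ± 0.28). B2m, the light chain of all class I molecules, stood at 21932, 29677 and 10957 and at 10639.9, 11944 and 10683. Untreated females 1 and 2 were highest in all 3 genes, and untreated female 3 lay near the 3TC libraries. The H2 genes are near copies of each other, so reads could be split among them. After median-of-ratios scaling 1 of the 18 genes lay lower without overlap and 1 higher, and without untreated female 1 the median relative to all genes was −0.11. The median log2 change was −0.69, and with the tissue scores as covariates −0.21. For H2-Q7 the covariates gave −0.60.

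The genes that silence or restrict retroelements lay at the median of all genes (−0.02 relative to it, 23 of 25 tested), with 2 lower without overlap against 10.7% of all genes. Daxx, a histone chaperone of heterochromatin, stood at 2277, 1169 and 1118 in untreated and at 1038, 1092 and 1009.9 in 3TC females (−0.46 ± 0.20), and its groups overlapped after median-of-ratios scaling. Transposable elements themselves gave 0 calls of 968 subfamilies by limma (0%), edgeR and DESeq2. At an unadjusted p under 0.05 limma had 6, edgeR 32 and DESeq2 36. The spread in these fits included young untreated females 1 and 3, whose element share was 5.92% and 12.04%. Without those 2 libraries limma had 28, of which 24 were lower. It had 62 (57 lower) in the 12 old libraries and 64 (59 lower) in the 6 old females alone, with 0 calls in each. Without overlap, 118 subfamilies (12.2%) lay lower and 12 (1.24%) higher, next to 10.7% and 0.822% for genes. All elements together held 1.98%, 1.97% and 1.80% of the counts in untreated and 1.85%, 1.80% and 1.64% in 3TC females.

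The 6 L1Md subfamilies, the youngest mouse L1 lineages, summed to 88326, 81585 and 80167 normalised counts in untreated and to 73152, 81873 and 78083 in 3TC females. The groups overlapped, and the log2 ratio of the sums was −0.10 (exact two-sided permutation p = 0.3, n = 3 each). LTR elements summed to 381462, 397293 and 351450 and to 335727, 349592 and 323921, a log2 ratio of −0.16 (exact permutation p = 0.1, the smallest possible, n = 3 each). The LTR sums did not overlap as deposited, and their ratio was close to the −0.19 of the median gene. After median-of-ratios scaling the log2 ratios were 0.01 for LTR elements and 0.07 for L1Md, with overlapping groups, so neither direction held. In the limma fit over all 18 libraries, the subfamilies with the smallest p below 0 were RLTR1E_MM (−2.94 ± 1.05), Charlie8 (−1.97 ± 0.72) and MamGypLTR1c (−1.18 ± 0.44). Those above 0 were LTR69 (1.78 ± 0.81), IAPLTR3 (2.16 ± 0.99) and RLTR17C_Mm (1.41 ± 0.71). RLTR1E_MM, an LTR of the ERV1 family, stood at 12.1 to 20.8 counts in untreated and at 1.0 to 2.1 in 3TC females. Charlie8, a DNA transposon remnant, stood at 14996 counts in untreated female 2 alone and at 486 to 962 in the other 5 libraries.

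Genes of the p53 pathway and of cell stress lay lower about as often as all genes did. Of 26 p53 response genes, 3 lay lower (Zmat3, Bax, Pml) and 1 higher (Sesn1) without overlap, against 10.7% and 0.822% of all genes, and the median was 0.04 above that of all genes. Zmat3, an RNA-binding p53 target, stood at 929, 875 and 764 in untreated and at 633, 644 and 496 in 3TC females (−0.54 ± 0.18). Pml, the scaffold of PML nuclear bodies, stood at 732, 717 and 550.0 and at 518, 449 and 445 (−0.49 ± 0.18). Both kept their separation after median-of-ratios scaling, while the cell cycle inhibitor Cdkn1a stood at 6355, 2717 and 3106 and at 4003, 1902 and 3616 with overlap (−0.32 ± 0.51). With the tissue scores as covariates the log2 changes were −0.17 for Zmat3 and −0.12 for Pml.

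Of 22 genes of the integrated and mitochondrial stress responses, 2 lay lower and 1 higher without overlap (all genes 10.7% and 0.822%), with a median of −0.04 relative to all genes. Mthfd2, a mitochondrial folate enzyme, stood at 248, 286 and 253 in untreated and at 182, 151 and 185 in 3TC females (−0.61 ± 0.21). Slc7a11, the cystine transporter, stood at 72.1, 63.3 and 55.9 and at 26.1, 29.3 and 17.0 (−1.39 ± 0.53). Gdf15, a hormone released under mitochondrial stress, stood at 8.0, 5.4 and 10.3 and at 16.7, 15.2 and 19 (1.05 ± 1.12). All 3 were separated under both scalings, but Gdf15 rested on fewer than 20 counts per library, and Fgf21, another such hormone, stood at 25.0, 12.7 and 38.2 and at 34.5, 2.2 and 9.6 with overlap (−1.19 ± 1.18).

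Insulin signalling genes had a median of −0.07 relative to all genes, and 2 of 21 lay lower without overlap, against 10.7% of all genes. Pik3r1, the regulatory subunit of PI3 kinase, stood at 6503, 4526 and 2994 in untreated and at 2868, 2909 and 2611 in 3TC females (−0.67 ± 0.21). Irs1, the insulin receptor substrate, stood at 10301, 6318 and 5060.3 and at 3036, 5426 and 2958 (−0.92 ± 0.30). Untreated female 1 was highest in both, the Irs1 groups overlapped through 3TC female 5, and the Pik3r1 groups overlapped after median-of-ratios scaling. Of 50 cytosolic ribosomal protein genes, 16 lay lower and 1 higher without overlap (all genes 10.7% and 0.822%), but after median-of-ratios scaling the counts were 1 and 1 (all genes 5.82% and 3.13%). Rpl3, which remained separated, stood at 7123, 5724 and 5416 and at 4707, 3854 and 4341 (−0.50 ± 0.19), and its log2 change was −0.15 with the tissue scores as covariates. The proteasome list, with a median of −0.09 relative to all genes, had 1 of 25 genes lower without overlap, below the 10.7% of all genes.

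Other genes studied in old muscle are given here with their values. The groups of the next 4 genes overlapped. The nuclear receptor Nr4a1 had a log2 change of −0.17 ± 0.19, the kinase gene Sgk1 of 0.18 ± 0.20 and the carbonic anhydrase gene Car3 of 0.00 ± 0.39. The chemokine gene Ccl8 stood at 366, 66.0 and 45.7 and at 63.7, 60.7 and 47.8 (−0.85 ± 0.90), with untreated female 1 far above the rest. Sod1, which removes superoxide, stood at 18666, 14541 and 13171 and at 10805, 11274 and 12847 (−0.40 ± 0.14). Its groups were separated as deposited and overlapped after median-of-ratios scaling, and its log2 change with the tissue scores as covariates was −0.18.

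The same comparison was made in old males, with libraries of their own. In males 1479 genes (9.21%) lay lower and 349 (2.17%) higher without overlap with 3TC. Lower in both sexes were 183 genes, 10.63% of the female and 12.37% of the male list. These shares were near those of all genes, of which 9.21% were lower in males and 10.7% in females. Higher in both were 2 genes, 1.52% of the female and 0.57% of the male list, against 2.17% and 0.822% of all genes. In opposite directions, 38 genes lower in females were higher in males (2.21% of the female list). Another 12 genes higher in females were lower in males (9.09% of the female list). By limma the female and male changes differed in 0 of 16060 genes (0%), with 477 at an unadjusted p under 0.05. edgeR also called 0, with 610 at an unadjusted p under 0.05, while DESeq2 called 71.

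The 5 genes with the smallest p for a lower change in females than in males were Hpca, Baalc, Slc1a2, Lrrc4b and Kcnj10. For Baalc, a gene of brain, the female log2 change minus the male one was −5.86 ± 1.44, and for Slc1a2 it was −9.27 ± 2.63. The brain score of males changed by 0.91 (exact two-sided permutation p = 0.3, n = 3 each), against −3.80 in females. On the other side were Mfsd7b (1.13 ± 0.32), a haem exporter gene, the nuclear RNA Neat1 (0.92 ± 0.26), Hic2 (0.86 ± 0.27), Sbk2 (1.15 ± 0.38) and the collagen hydroxylase gene P3h2 (1.07 ± 0.36). In females Neat1 stood at 22463, 24317 and 24339.6 and at 31078, 21479.9 and 25691, with overlapping groups. The slow fibre list lay 2.16 above the median of all genes in females and at −0.83 relative to it in males. MHC class I presentation lay at −0.51 in females and −0.23 in males, and complex I at 0.42 and 0.17. These differences between lists were not tested.

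**Figure D5:**
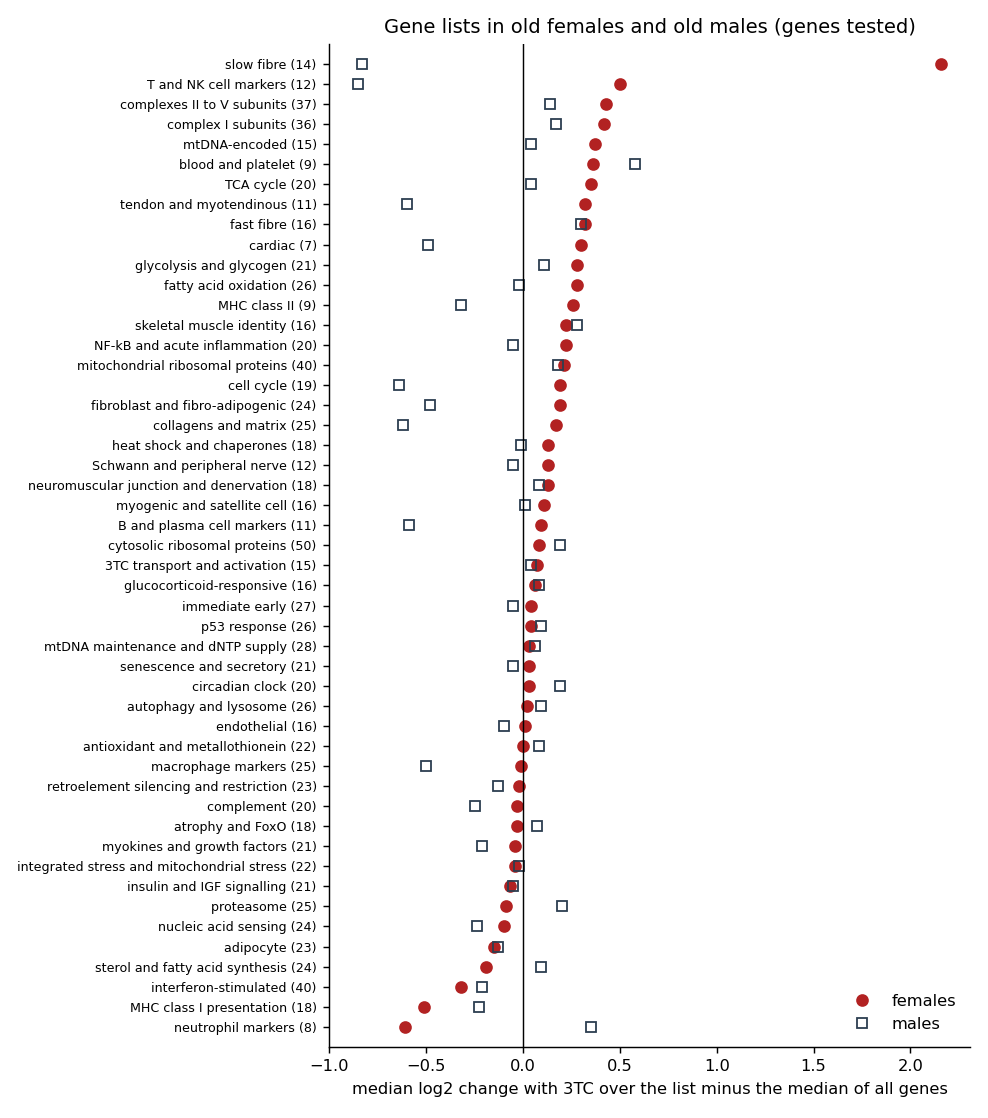
Median log2 change with 3TC of each gene list minus the median of all genes, in old females (filled circles) and old males (open squares), with the number of genes tested in brackets and the tissue lists for brain, liver and kidney left out. The slow fibre list has the highest female value, 2.16, and most other lists lie within 0.5 of the median of all genes in females.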

How the data were processed

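The authors deposited a table of normalised counts per gene and transposable element subfamily, a signal with the same total of 74.0 M in every library. Reads were aligned with STAR to mm10, per the submitters' processing notes, and the counting program and its use of strand are not given in the sources used here. Values were whole multiples of 1 read within 0.001 reads, so reads were recovered for count tests. In 27 rows a date stood in place of a gene name, and these were left out (0.0628% to 0.0831% of each library).

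Genes averaging 10 or more normalised counts across all 18 libraries were tested with limma 3.58.1 (R 4.3.3, trended empirical Bayes, 6 groups, 12 residual degrees of freedom) on log2(value + 1) with Benjamini-Hochberg adjustment, and elements likewise. Errors after ± are limma's standard errors. The script was tested on simulated data. Alternatives were edgeR 4.0.16 and DESeq2 1.42.0 on recovered reads, other scalings, filters, pseudocounts and libraries. Some were chosen after seeing the data, namely the fit without young untreated females 1 and 3, whose element share stood apart (5.92% and 12.04%), and the rescaled counts of non-overlapping genes and element sums.

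Named genes were the 10 in each direction with the smallest p whose groups do not overlap (mean of at least 50, no predicted names), the 2 with the smallest p of each list, a short list of further genes, and 5 in each direction for the sex difference. Other genes were chosen after their values were seen. The members and lists were chosen with earlier results of these data known. Gene coordinates are from GENCODE and promoters from RefSeq, both on GRCm38.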

Additional observations from a re-analysis of the deposited data

How the results depend on the processing

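No paired analysis was possible because the untreated females carry the numbers 1, 2 and 3 and the 3TC females 4, 5 and 8. The count of 0 genes called by limma became 2 with no filter on low counts (Psg17 higher, Vip lower), 2 in the 12 old libraries (Kcnj10, Nrgn) and 32 with DESeq2, and stayed at 0 under the other alternatives, including without each of the 6 libraries. For the difference between the sexes the count was 71 with DESeq2 and 0 elsewhere, and for elements it was 0 throughout. Genes without overlap numbered 934 lower and 502 higher after median-of-ratios scaling. Over 71 genes and 1486 alternative values, 1451 kept their direction and side of the threshold. With the tissue scores as covariates the log2 change turned to 0.19 for Irf7 and Ccl8, 0.31 for Samhd1, 0.15 for Fgf21, 0.06 for Tk2, 0.02 for Cmpk1 and −0.11 for Car3. It also turned to 0.19 for Snap25, but Snap25 is part of the brain score, so its change in that fit was bound to shrink. The log2 ratio of the summed counts turned to 0.01 for LTR, 0.07 for L1Md and 0.05 for all elements after median-of-ratios scaling. Alb was at 0.61 with edgeR and with DESeq2. Nr4a1 was at 0.0 after median-of-ratios scaling and with edgeR, Car3 at −0.0 with the gene-row total and −0.38 with array weights, and Cdkn1a at 0.1 with array weights. Leaving out single libraries gave −0.4 to 0.43 for Car3, −1.44 to 0.05 for Ccl8, −0.56 to 0.06 for Cdkn1a, −0.02 to 0.27 for Mfsd7b, −0.01 to 0.25 for Neat1, −0.47 to 0.0 for Polg and −0.56 to 0.14 for Samhd1. The cause was not tested. Medians of 51 lists moved by less than their spread in 927 of 969 cases. Every 3TC library was shallower than every untreated one, which limits the comparison of genes near 0.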

Other observations

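Single libraries stood apart in ways described here after the values were seen. Untreated female 2 held the most of the fat cell and lipid synthesis genes named here. Fasn, fatty acid synthase, stood at 1033, 72305 and 7342 in untreated and at 4040.0, 7289 and 9466 in 3TC females, and Adipoq, the adipocyte hormone adiponectin, at 1328, 20939.5 and 1913 and at 1328, 4275 and 4602. The 24 sterol and fatty acid synthesis genes had a median of −0.19 relative to all genes, and 0.15 without untreated female 2. Of these genes 2 lay lower without overlap, against 10.7% of all genes, namely Sqle, an early enzyme of sterol synthesis (log2 change −0.92 ± 0.38, overlapping after median-of-ratios scaling), and the desaturase gene Scd2 (−1.10 ± 0.53). The adipocyte list moved from −0.15 to 0.72 without that library. Untreated female 1 held the most of the ubiquitin ligase Fbxo32, an atrophy gene, at 107836, 33806 and 20343 against 24109, 23166 and 23539 (−0.83 ± 0.45).

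3TC female 5 stood apart by heat shock genes, with Hspa1a at 1158, 429 and 392.5 in untreated and at 543, 7119 and 592 in 3TC females. Hspa1a and Hspa1b are near-identical copies, so reads could be split between them. Of the 13375 genes with a mean of at least 50, 83 were at least 4-fold higher in untreated female 2 than in any other of the 6 libraries, 37 in untreated female 1 and 16 in 3TC female 8. In each of the other 3 libraries the number was 1 or 2. At least 4-fold lower than in any other library were 30 genes in 3TC female 5 and 25 in 3TC female 4. The number was 3 in 3TC female 8, and 10, 6 and 0 in untreated females 1, 2 and 3. Clock, a core circadian gene, lay lower in all 3TC females (−0.49 ± 0.22), as did Fkbp5, which glucocorticoids induce (−0.65 ± 0.38), though the Fkbp5 groups overlapped after median-of-ratios scaling. Ryr2, the calcium release channel of heart and brain, lay lower (−2.51 ± 0.92), in the direction of the brain score, whose part in it was not tested. Nusap1, a mitotic spindle gene, stood at 48.1, 32.5 and 43.8 in untreated and at 74.2, 87.8 and 78.6 in 3TC females. It lay higher in all 3TC females (0.95 ± 0.52) and did not pass the test by limma.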
